A study of Mus musculus with 6 samples.

Results

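Autophagy delivers cell contents to the lysosome in a double-membraned vesicle, the autophagosome, and mitophagy is its selective form for mitochondria. The genes described here are 40 parts of that machinery, chosen by symbol from the count table of the series, which holds 24421 genes. They cover the kinase complex that starts the process, the lipid kinase that marks the membrane, the lipid suppliers, the system that attaches ATG8 proteins to lipid, the ATG8 proteins themselves, the receptors that carry cargo to them, and the mitochondrial receptors of the BNIP3 and PINK1 routes. All 40 symbols were found in the table, and all 40 had enough counts to be tested. No member had to be dropped by the filter on low counts, so the counts of members below are over the whole list.

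The cells were Neuro2a, a mouse neuroblastoma line whose genotype the labels give as WT. The study asks how Fam172a acts in obesity caused by diet. In one group the cells received a virus labelled ADV-shFam172a, whose name gives a short hairpin RNA (shRNA) against Fam172a (3 samples), and in the other a virus labelled ADV-shCtrl (3 samples). The labels do not spell out ADV. Both groups were grown on collagen I in DMEM with serum and harvested after 48 h, and nothing else in the labels differs between them. The study works on 1 line, with 1 hairpin name per group, and the labels do not say whether the 3 samples of a group are separate infections, so the p-values rest on how these samples vary among themselves, and that variation may be technical.

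The libraries of ADV-shFam172a held 21690467 to 23409319 gene counts and those of ADV-shCtrl 11250312 to 12820531, so the depth moves with the group. Replicate 3 of ADV-shFam172a had fewer pairs of low alignment quality than its fellows (4.46%, against 6.65% and 7.12%), and without it 15 members were higher and 2 lower, with Atg12 losing its call and Atg101 gaining one. Fam172a was at 9.22, 8.28 and 9.22 CPM (counts scaled to a common library size, after TMM scaling for library composition) in ADV-shFam172a, against 18.6, 19.3 and 19.5 CPM in ADV-shCtrl (log2 fold change -1.10 ± 0.092, SE, edgeR adjusted p = 2.4e-12). The line's own sympathoadrenal and neuronal markers were present, with 13 of 14 tested and a summed level of 2367 to 2411 CPM in ADV-shFam172a and 2280.1 to 2294 CPM in ADV-shCtrl. Of these, 7 were higher and 1 lower at an adjusted p under 0.05, the threshold used below, where 17.5% of all genes tested were higher and 18.6% lower. Th was at a log2 fold change of 1.004 ± 0.098 and Elavl4 at -0.50 ± 0.031. The part of these differences in the members' values was not tested. Markers of other cells were low, apart from the fibroblast marker Fbln1. The 10 macrophage markers summed to 1.37 to 1.53 CPM in ADV-shFam172a and 0.857 to 1.46 CPM in ADV-shCtrl, with Ptprc, Itgam and C1qa at 0 counts in all 6 libraries. The sole one tested, Cd68, had 24, 21 and 23 counts in ADV-shFam172a and 7, 3 and 8 in ADV-shCtrl (log2 fold change 0.998 ± 0.40, edgeR adjusted p = 0.048). The sums for 10 astrocyte and oligodendrocyte markers were 47.6 to 52.6 and 50.2 to 53.8 CPM, with Aqp4, Olig1 and Olig2 at 0, and those for 10 endothelial and epithelial markers were 17.8 to 19.9 and 17.0 to 18.5 CPM, in the same order of groups, with none at 0 in all libraries. The 10 fibroblast markers summed to 320.2 to 324 CPM in ADV-shFam172a and 289 to 319 CPM in ADV-shCtrl, of which Fbln1 alone gave a mean of 311 and 293 CPM. Fbln1 passed the threshold as higher (log2 fold change 0.084 ± 0.031, edgeR adjusted p = 0.035). Cnp, of the astrocyte and oligodendrocyte markers, passed as lower (-0.23 ± 0.079, adjusted p = 0.021).

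The kinase ULK1, with its partners ATG13, FIP200 and ATG101, starts autophagosome formation when nutrients or energy fall. The class III phosphatidylinositol 3-kinase then makes the lipid PI3P, which recruits WIPI proteins and the lipid carrier ATG2. An enzyme cascade resembling that of ubiquitin couples ATG8 proteins (the LC3 and GABARAP families) to the membrane, where receptors such as p62 bind them with their cargo. BNIP3 and its relative BNIP3L (also called NIX) sit in the outer mitochondrial membrane and bind ATG8 proteins directly, and both genes are known to be switched on in low oxygen by hypoxia-inducible factor (HIF).

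The mitophagy receptors Bnip3 and Bnip3l and the initiating kinase Ulk1 were the members that differed most between the groups, and the log2 fold changes of the rest lay between -0.18 and 0.40. Of the 40 members, 15 were higher and 2 lower in ADV-shFam172a at an adjusted p under 0.05 (edgeR quasi-likelihood test, adjusted over all 12820 genes tested), and 23 did not pass. Among all genes tested, 17.5% were higher and 18.6% lower by the same rule, 36.1% in all. The members' median log2 fold change was 0.13 (ADV-shFam172a over ADV-shCtrl), beside -0.00030 over all genes tested. At an absolute log2 fold change of 0.25 or more, 10 members were higher and 0 lower, where 8.19% of all genes were higher and 7.06% lower. In 20 members every ADV-shFam172a library lay above every ADV-shCtrl library, and in 6 every one lay below, against 22.5% and 23.5% of all genes and 46% in either direction. The list was drawn up with results of these data known, so these shares describe it and nothing particular to it is read from them. In bulk RNA, fewer cells of a kind and less RNA per cell cannot be told apart.

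**Figure D1:**
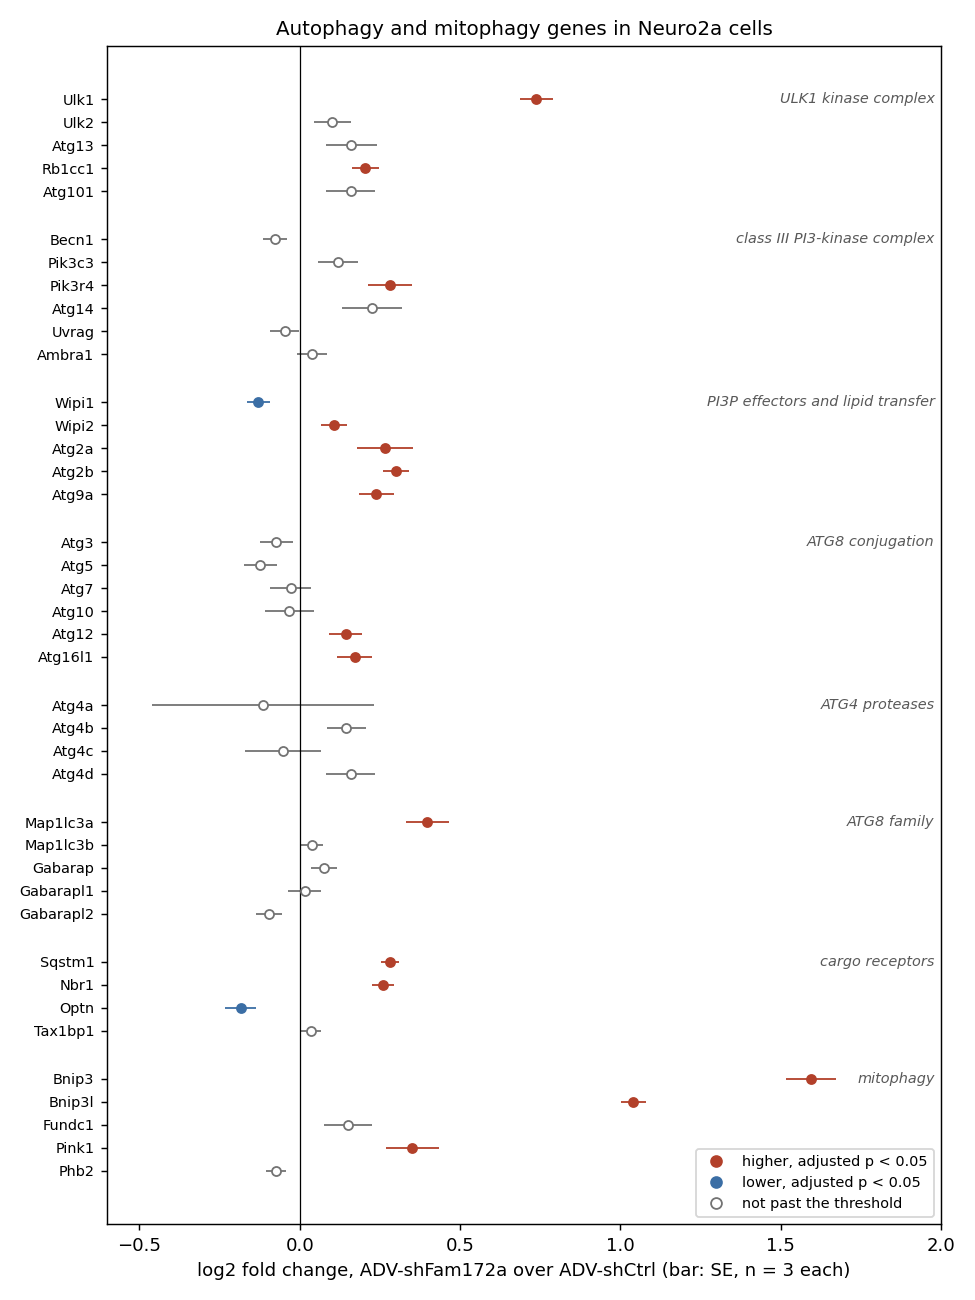
Log2 fold change of each of the 40 members, ADV-shFam172a over ADV-shCtrl, grouped by role, with bars for the SE (n = 3 per group). Red and blue points passed an adjusted p of 0.05 as higher (15) and lower (2), open points did not (23), and Bnip3 (1.59), Bnip3l (1.04) and Ulk1 (0.74) lie farthest to the right.

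Bnip3 was 3.02-fold higher in the knockdown. It stood at 670.4, 626 and 624 CPM in the ADV-shFam172a libraries, against 239, 197 and 200.5 CPM in the ADV-shCtrl libraries. The lowest ADV-shFam172a library was far above the highest ADV-shCtrl library. The means were 640.1 ± 26.3 and 212 ± 23.1 CPM (SD, n = 3 each), a log2 fold change of 1.59 ± 0.077 (SE, edgeR adjusted p = 1.3e-05). By the size of its log2 fold change Bnip3 ranked 26 among the 12820 genes. Its p depended on the fit, from 6.5e-60 to 5.7e-04 after adjustment over 15 other settings, while its log2 fold change stayed between 1.54 and 1.69. In GRCm38, Bnip3 spans 138890836 to 138909519 of chromosome 7 on the minus strand, with 6 merged exons.

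Bnip3l, the second receptor of this kind, was 2.06-fold higher. Its levels were 220.1, 203 and 209.9 CPM in ADV-shFam172a, against 111, 99.8 and 97.1 CPM in ADV-shCtrl. The groups were well apart. Their means were 211 ± 8.75 and 103 ± 7.20 CPM, and the log2 fold change was 1.04 ± 0.040 (edgeR adjusted p = 8.4e-23), rank 106 by size. Bnip3l is on chromosome 14 at 66985239 to 67008877, minus strand, with 10 merged exons. Set on a common scale of CPM per kb of exon, the pair together made up 337 ± 13.7 CPM per kb in ADV-shFam172a and 120.2 ± 11.99 CPM per kb in ADV-shCtrl. Bnip3 held 83.8%, 84.0% and 83.5% of that sum in ADV-shFam172a and 78.6%, 77.1% and 77.9% in ADV-shCtrl, so the larger partner also grew in share. Stretches of both transcripts have near-identical copies in the genome annotation, with at least 95% identity over 200 bases or more. For Bnip3 these are 3 pseudogenes and 1 long noncoding RNA, the longest match covering 48.9% of the transcript at 98.3% identity, and for Bnip3l the pseudogene Bnip3l-ps over 20.3% at 99.2% identity. None of these copies has a row in the table, so reads shared with them could not be followed and the levels of both genes are uncertain to that extent. The antisense gene Gm45507 also overlaps 22.3% of the exon bases of Bnip3, and whether the counting used strand is not stated in the sources used here.

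The promoter windows of 4 members are shown because Bnip3 rose most, Ulk1 led the initiation genes, Sqstm1 was the most abundant of the 4 cargo receptors, and Map1lc3b, which did not pass the test, holds as many motif matches as Bnip3. Each is the 250 bases before the annotated start, from RefSeq on GRCm38.p6, printed 5′ to 3′ on the gene's strand. Capitals mark ACGTG and GCGTG on either strand (read as CACGT and CACGC on the opposite one), the core letters that HIF binds. The windows are chr7:138909507-138909756 on the minus strand for Bnip3, chr5:110810082-110810331 on the minus strand for Ulk1, chr11:50210821-50211070 on the minus strand for Sqstm1, and chr8:121590188-121590437 on the plus strand for Map1lc3b.
Bnip3: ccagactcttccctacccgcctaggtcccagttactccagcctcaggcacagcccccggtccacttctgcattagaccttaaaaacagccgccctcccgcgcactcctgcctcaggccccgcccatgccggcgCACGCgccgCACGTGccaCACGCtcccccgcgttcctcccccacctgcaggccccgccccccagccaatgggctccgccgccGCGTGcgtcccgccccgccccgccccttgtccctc
Ulk1: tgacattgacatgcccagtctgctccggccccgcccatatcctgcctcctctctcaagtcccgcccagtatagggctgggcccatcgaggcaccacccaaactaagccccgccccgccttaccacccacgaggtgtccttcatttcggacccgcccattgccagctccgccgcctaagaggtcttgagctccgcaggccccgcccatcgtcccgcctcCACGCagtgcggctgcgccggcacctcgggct
Sqstm1: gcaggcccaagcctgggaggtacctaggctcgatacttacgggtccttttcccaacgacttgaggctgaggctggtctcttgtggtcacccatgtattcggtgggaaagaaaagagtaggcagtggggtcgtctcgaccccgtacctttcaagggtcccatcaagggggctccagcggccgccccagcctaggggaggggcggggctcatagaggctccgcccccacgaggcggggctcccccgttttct
Map1lc3b: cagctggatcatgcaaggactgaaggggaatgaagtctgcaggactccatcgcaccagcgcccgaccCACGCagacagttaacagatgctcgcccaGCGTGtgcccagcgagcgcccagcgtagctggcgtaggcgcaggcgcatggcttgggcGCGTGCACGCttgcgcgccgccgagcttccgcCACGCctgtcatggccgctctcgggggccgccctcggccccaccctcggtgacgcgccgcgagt

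The Bnip3 window holds 5 matches. A cluster begins 117 bases before the start (position -117), continues with CACGTG at -108, which counts as 2 matches because it reads ACGTG on both strands, and has a further match at -99, and the last lies at -35. Map1lc3b also has 5, of which those at -96 and -91 adjoin and print as 1 run of capitals, Ulk1 has 1 at -32, and Sqstm1 has 0. Windows were found for 33 of the 40 members, and 29 of these genes had at least 1 match to ACGTG or GCGTG, against 41.5% of 27025 genes with a window. A match was in 9 of 10 members with a window that rose and in 20 of 23 that did not rise. With a match in 29 of 33 members, this tally could hardly tell them apart, and nothing is concluded from it. The 7 members without a window, Bnip3l and Map1lc3a among them, are not in the tally. CACGTG, a letter string that overlaps ACGTG, was in the windows of Bnip3, Atg3, Atg5 and Atg7, beside 6.86% of all genes. At least 5 matches were found in 2 of 37 member windows, in 1.01% of all windows and in 2.71% of windows with at least 60% G and C. Member windows were richer in G and C, with a median of 59.6% against 52.4% over all windows, and 63.8% of windows with at least 60% G and C held a match. A match is a run of letters and no evidence of binding.

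Of the other mitophagy genes, Pink1 rose and Fundc1 and Phb2 did not pass. Pink1 encodes the kinase that accumulates on damaged mitochondria and recruits the ubiquitin ligase parkin. It was at 20.3, 18.6 and 18.8 CPM in ADV-shFam172a, against 15.6, 14.6 and 14.97 CPM in ADV-shCtrl, with no overlap between the groups (log2 fold change 0.35 ± 0.082, edgeR adjusted p = 7.8e-04). The parkin gene, listed as Park2, was barely detected, with 4, 2 and 6 counts in ADV-shFam172a and 3, 0 and 2 in ADV-shCtrl, and was under the filter.

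Fundc1, another receptor of the outer mitochondrial membrane, was at 21.3, 20.7 and 21.9 CPM in ADV-shFam172a, against 19.03, 19.9 and 18.5 CPM in ADV-shCtrl. All ADV-shFam172a libraries lay above the ADV-shCtrl ones by a small step (log2 fold change 0.15 ± 0.075, edgeR adjusted p = 0.12). Offsets for exon length and GC content gave 0.24 and an adjusted p of 0.0086. Phb2, an inner-membrane protein that binds LC3 once the outer membrane is broken, was at 194, 196 and 191 CPM in ADV-shFam172a, against 205, 202 and 205 CPM in ADV-shCtrl. Every library of the knockdown was lower, yet the difference did not pass (log2 fold change -0.07 ± 0.031, edgeR adjusted p = 0.059). Its partner Phb, which is not a member and was named after its values were seen, did pass, at -0.15 ± 0.032 (adjusted p = 2.5e-04).

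**Figure D2:**
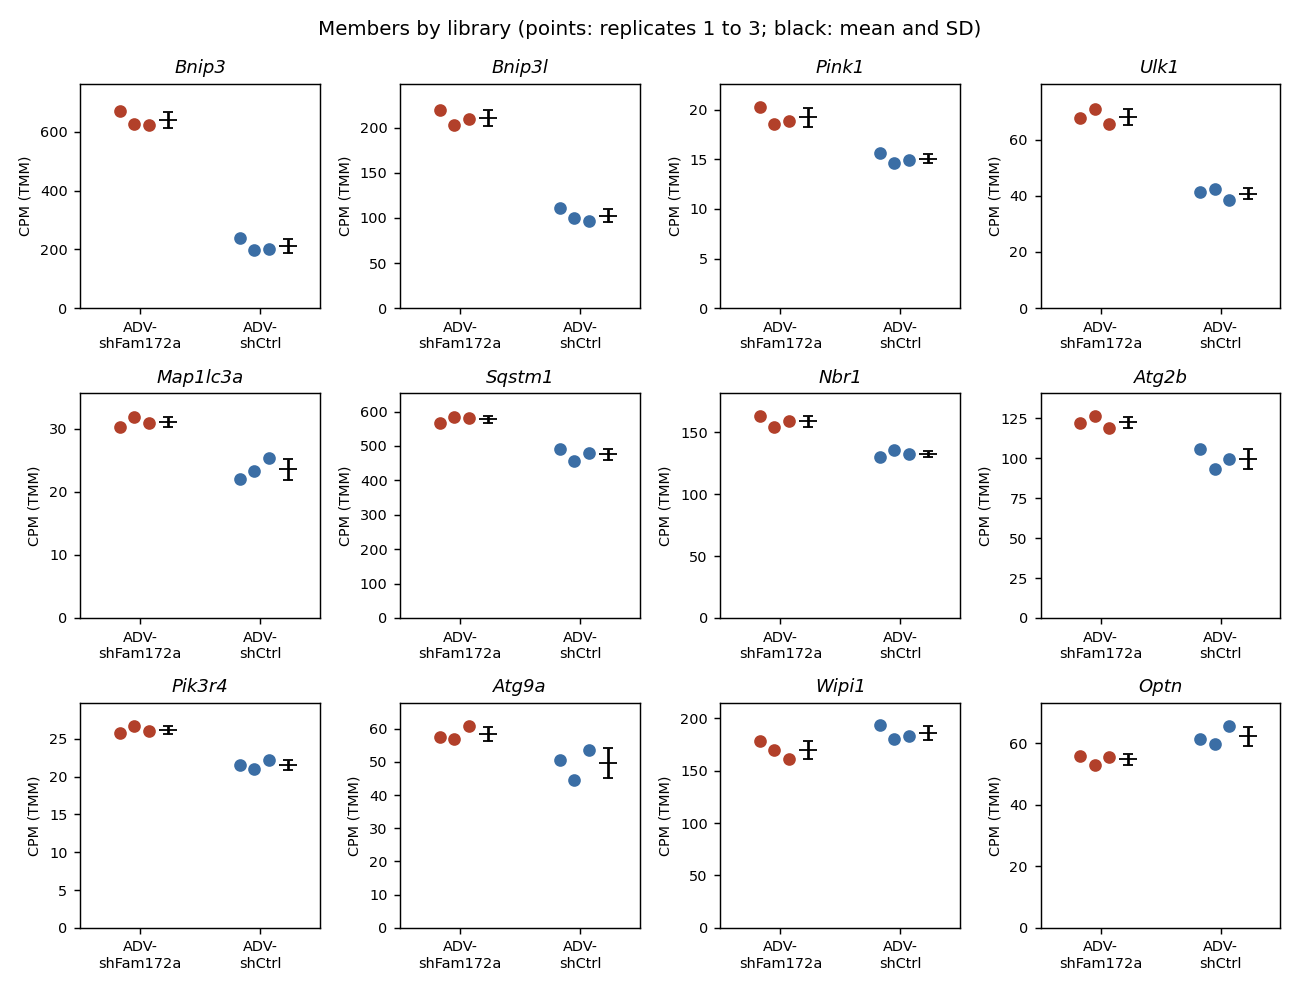
Level of 12 members in every library in CPM after TMM scaling, ADV-shFam172a (red) left of ADV-shCtrl (blue), with points for replicates 1 to 3 and black marks for mean and SD. All axes begin at 0; Bnip3 and Bnip3l separate by 3.02-fold and 2.06-fold, the other rises are smaller, and Wipi1 and Optn lie lower in ADV-shFam172a.

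In the ULK1 kinase complex, Ulk1 and Rb1cc1 rose, and Ulk2, Atg13 and Atg101 did not pass. Ulk1, the kinase itself, was at 67.8, 71.1 and 65.4 CPM in ADV-shFam172a, against 41.2, 42.5 and 38.5 CPM in ADV-shCtrl. The groups were clearly apart, at 68.1 ± 2.84 and 40.8 ± 2.04 CPM (log2 fold change 0.74 ± 0.052, 1.67-fold, edgeR adjusted p = 1.7e-14). Ulk1 lies on chromosome 5 and shares no exon bases with another annotated gene. Its paralog Ulk2 was at 44.8, 40.1 and 41.5 CPM in ADV-shFam172a, against 40.04, 38.6 and 39.1 CPM in ADV-shCtrl (0.10 ± 0.056, adjusted p = 0.16). As a share of both kinases per kb of exon, Ulk1 made up 59.8% ± 1.94 in ADV-shFam172a and 48.9% ± 1.38 in ADV-shCtrl. Rb1cc1, which encodes the scaffold FIP200, was at 106, 105 and 115 CPM in ADV-shFam172a, against 95.9, 93.7 and 93.5 CPM in ADV-shCtrl (0.21 ± 0.041, adjusted p = 1.2e-04). Atg13, the adaptor of the complex, and Atg101, its stabiliser, had log2 fold changes of 0.16 ± 0.080 and 0.16 ± 0.077, and in both the libraries of the groups overlapped. Each of these became a call when 1 library was left out, Atg13 without ADV-shCtrl replicate 3 (0.27, adjusted p = 0.019) and Atg101 without ADV-shFam172a replicate 3 (0.21, adjusted p = 0.031).

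Of the 6 class III phosphatidylinositol 3-kinase genes, 1 passed, Pik3r4, as higher, where 36.1% of all genes tested passed and 17.5% were higher. Pik3r4 encodes the regulatory subunit VPS15 and was at 25.8, 26.7 and 26.0 CPM in ADV-shFam172a, against 21.5, 20.95 and 22.2 CPM in ADV-shCtrl, with no overlap (log2 fold change 0.28 ± 0.069, edgeR adjusted p = 0.0014). Pik3c3, the catalytic subunit VPS34, was at 0.12 ± 0.062 (adjusted p = 0.14), and Becn1, the scaffold Beclin 1, at -0.08 ± 0.037 (adjusted p = 0.10). Atg14, which directs the complex to the site of autophagosome formation, lay above ADV-shCtrl in every library at 0.23 ± 0.094, just outside the threshold (adjusted p = 0.058). It passed under upper-quartile scaling (adjusted p = 0.043) and with length and GC offsets (adjusted p = 0.046). Uvrag, the subunit that replaces ATG14 in a second form of the complex, and Ambra1, a regulator of Beclin 1, were at -0.05 ± 0.045 and 0.04 ± 0.046. The exons of Becn1 share 43.9% of their bases with Cntd1 on the opposite strand.

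All 5 genes that act on PI3P or supply lipid passed the edgeR test, 4 of them as higher. Among all genes tested, 36.1% passed and 17.5% were higher. With DESeq2, Wipi2 and Atg2a did not pass. The largest rise was that of Atg2b, a bridge-like lipid carrier, at 122, 126 and 119 CPM in ADV-shFam172a, against 106, 93.2 and 99.7 CPM in ADV-shCtrl (log2 fold change 0.30 ± 0.041, edgeR adjusted p = 2.1e-07). The groups did not overlap. Its paralog Atg2a was at 16.9, 15.7 and 16.5 CPM in ADV-shFam172a, against 13.8, 12.5 and 14.6 CPM in ADV-shCtrl (0.27 ± 0.089, adjusted p = 0.017), and leaving out ADV-shCtrl replicate 2 ended the call (0.20, adjusted p = 0.14), as did length and GC offsets without and with the replicate block (0.18, adjusted p = 0.11 for each). Atg2b held 81.0% ± 0.961 of the pair per kb in ADV-shFam172a and 80.7% ± 0.971 in ADV-shCtrl, a difference smaller than the spread between replicates. Atg9a, the membrane protein that moves lipid between the leaflets, was at 57.5, 57.0 and 60.7 CPM in ADV-shFam172a, against 50.6, 44.6 and 53.7 CPM in ADV-shCtrl (0.24 ± 0.054, adjusted p = 5.3e-04). An annotated processed transcript, Gm29253, shares 31.8% of its exon bases on the same strand.

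The WIPI proteins, which read PI3P, moved in opposite directions. Wipi1 fell to 178, 170.1 and 161 CPM in ADV-shFam172a, against 193, 181 and 183 CPM in ADV-shCtrl (log2 fold change -0.13 ± 0.036, edgeR adjusted p = 0.0039). Wipi2, the form that recruits the ATG16L1 complex, was at 104, 105 and 97.6 CPM in ADV-shFam172a, against 97.5, 94.0 and 93.4 CPM in ADV-shCtrl (0.11 ± 0.040, adjusted p = 0.036). The nearest libraries of Wipi2 almost touched. Its call ended without ADV-shFam172a replicate 1 or 2 or ADV-shCtrl replicate 2 or 3 (adjusted p = 0.096, 0.15, 0.11 and 0.12), and with length and GC offsets it was at 0.05 with adjusted p = 0.35.

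Of the 6 conjugation genes, 2 passed, where 36.1% of all genes tested did. Atg12 and Atg16l1, whose products join ATG5 in the complex that places ATG8 proteins on the membrane, were higher. Atg16l1 was at 48.7, 48.6 and 46.5 CPM in ADV-shFam172a, against 44.7, 43.2 and 39.8 CPM in ADV-shCtrl (log2 fold change 0.17 ± 0.054, edgeR adjusted p = 0.011). Atg12 was at 50.6, 51.7 and 52.1 CPM in ADV-shFam172a, against 48.5, 47.9 and 43.2 CPM in ADV-shCtrl (0.14 ± 0.052, adjusted p = 0.028). Both calls were lost without ADV-shCtrl replicate 3 (adjusted p = 0.10 and 0.21), and that of Atg12 also without ADV-shFam172a replicate 2 or 3 (adjusted p = 0.060 and 0.055). Atg5 itself lay below ADV-shCtrl in every library, at 42.6, 43.0 and 41.6 CPM in ADV-shFam172a and 47.2, 45.6 and 45.9 CPM in ADV-shCtrl, without passing (-0.12 ± 0.052, adjusted p = 0.060). The E1-like enzyme Atg7 and the E2-like enzymes Atg3 and Atg10 were at -0.03 ± 0.064, -0.07 ± 0.052 and -0.03 ± 0.078, and their libraries overlapped.

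None of the 4 ATG4 proteases, which trim ATG8 proteins and release them from lipid, passed the edgeR test, where 36.1% of all genes tested did. At an unadjusted p under 0.05 there were 2 of the proteases, Atg4b and Atg4d. Atg4b came nearest, at 37.4, 37.3 and 37.2 CPM in ADV-shFam172a, against 32.2, 36.4 and 32.4 CPM in ADV-shCtrl (log2 fold change 0.15 ± 0.060, edgeR adjusted p = 0.053). It passed in 4 of 15 other settings. DESeq2 also called 0 of the 4. Atg4d was at 0.16 ± 0.075 and Atg4c at -0.05 ± 0.12. Atg4a was hardly expressed, with 20, 22 and 17 counts in ADV-shFam172a and 9, 10 and 15 in ADV-shCtrl (-0.11 ± 0.35, adjusted p = 0.83), an estimate whose SE is the widest of the 40 members. A near-identical copy, Atg4a-ps, matches 96.0% of its transcript and has no row in the table. Syt6, which has a row, matches 23.1% of the Atg4a transcript at 99.4% identity.

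Of the 5 ATG8 genes, Map1lc3a alone passed, as higher, where 17.5% of all genes tested were higher. Map1lc3a, the gene of LC3A, was at 30.3, 31.8 and 30.8 CPM in ADV-shFam172a, against 21.9, 23.3 and 25.3 CPM in ADV-shCtrl, with no overlap (log2 fold change 0.40 ± 0.067, 1.32-fold, edgeR adjusted p = 1.0e-05). It lies on chromosome 2 and shares no exon bases with another annotated gene. Map1lc3b, the gene of LC3B and the usual marker of autophagosomes, was at 129, 127 and 126 CPM in ADV-shFam172a, against 125, 123 and 124 CPM in ADV-shCtrl. The groups were separated by less than 1 CPM at their nearest libraries (0.04 ± 0.035, adjusted p = 0.44). Gabarap was at 91.3, 95.3 and 87.4 CPM in ADV-shFam172a, against 85.5, 86.3 and 88.3 CPM in ADV-shCtrl, with overlap (0.08 ± 0.042, adjusted p = 0.16). With length and GC offsets Gabarap passed, at 0.10 with adjusted p = 0.040. Gabarapl1 was at 48.0, 48.2 and 45.6 CPM in ADV-shFam172a, against 45.6, 46.3 and 48.5 CPM in ADV-shCtrl, which overlap (0.02 ± 0.052, adjusted p = 0.84). Gabarapl2, also called GATE-16, was lower in every knockdown library, at 92.6, 86.8 and 91.2 CPM in ADV-shFam172a against 95.9, 96.3 and 97.1 CPM in ADV-shCtrl, just short of the threshold (-0.10 ± 0.040, adjusted p = 0.056). Without ADV-shFam172a replicate 1 it passed (-0.11, adjusted p = 0.044). Annotated processed pseudogenes, 3 for Gabarapl2 and 4 for Map1lc3b, match parts of these transcripts at 95% identity or more, so their levels are uncertain to that extent.

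Per kb of exon, Gabarap was the most abundant ATG8 gene in both groups, with 49.5 ± 2.16 CPM per kb in ADV-shFam172a and 47.0 ± 0.794 CPM per kb in ADV-shCtrl. Gabarapl2 followed with 38.8 ± 1.30 and 41.5 ± 0.256 CPM per kb in the same order of groups. Map1lc3a had 26.2 ± 0.669 CPM per kb in ADV-shFam172a and 19.9 ± 1.45 CPM per kb in ADV-shCtrl, and Gabarapl1 had 23.5 ± 0.732 and 23.2 ± 0.741. The order of these neighbours thus differed between the groups, Map1lc3a being above Gabarapl1 in ADV-shFam172a and below it in ADV-shCtrl. Map1lc3b was last, with 16.9 ± 0.192 CPM per kb in ADV-shFam172a and 16.5 ± 0.141 in ADV-shCtrl. That place rests on the length used: divided by the longest transcript, Map1lc3b had 30.8 and 30.0 CPM per kb, and Map1lc3a had 27.9 and 21.2. Within the family, Map1lc3a made up 16.9% ± 0.429 of the summed level per kb in ADV-shFam172a and 13.4% ± 0.685 in ADV-shCtrl, and Gabarapl2 25.05% ± 1.08 and 28% ± 0.429.

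**Figure D3:**
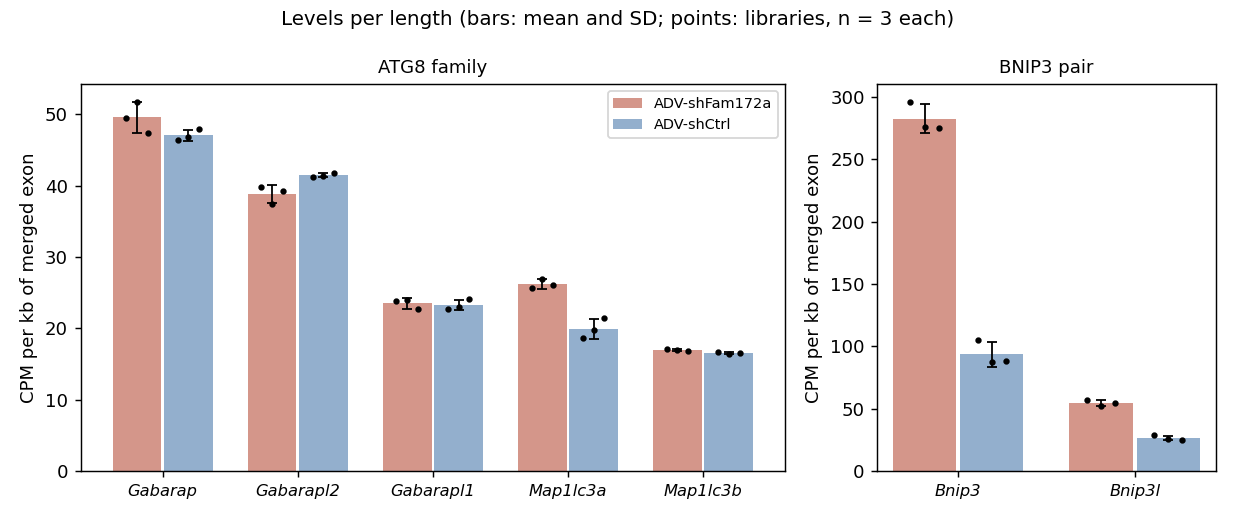
Level per kb of merged exon (CPM per kb) of the 5 ATG8 genes, left, and of Bnip3 and Bnip3l, right, in ADV-shFam172a (red) and ADV-shCtrl (blue). Bars are means with SD and points are libraries (n = 3 each); Map1lc3a stands at 26.2 against 19.9 and Bnip3 at 283 against 93.7 CPM per kb.

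Cargo receptors split, with Sqstm1 and Nbr1 higher, Optn lower and Tax1bp1 not passing. Sqstm1 encodes p62, which binds ubiquitinated cargo and is itself degraded with it. Its levels were 567, 585 and 580.4 CPM in ADV-shFam172a, against 490.0, 457 and 479 CPM in ADV-shCtrl (log2 fold change 0.28 ± 0.029, edgeR adjusted p = 3.6e-10). The groups did not overlap. Mrnip on the opposite strand shares 17.3% of the exon bases of Sqstm1. Nbr1, a relative of p62 that acts with it, was at 163, 155 and 159 CPM in ADV-shFam172a, against 130.3, 135 and 133 CPM in ADV-shCtrl (0.26 ± 0.035, adjusted p = 1.4e-07).

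Optn encodes optineurin, a receptor that acts after PINK1 and parkin. It fell to 55.9, 52.8 and 55.6 CPM in ADV-shFam172a, against 61.4, 59.7 and 65.7 CPM in ADV-shCtrl, with no overlap (log2 fold change -0.18 ± 0.049, edgeR adjusted p = 0.0028). Tax1bp1, a receptor of the same group, was at 186, 186 and 185 CPM in ADV-shFam172a, against 180.3, 185 and 178 CPM in ADV-shCtrl (0.04 ± 0.031, adjusted p = 0.40). Optn and Wipi1 were the members that were lower past the threshold.

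Per kb of exon, Bnip3 had the highest level of the 40 members in ADV-shFam172a, at 283 ± 11.6 CPM per kb, and ranked 2 in ADV-shCtrl, at 93.7 ± 10.2. Sqstm1 ranked 2 in ADV-shFam172a, at 172 ± 2.82, and 1 in ADV-shCtrl, at 142 ± 5.01. Bnip3l ranked 3 and 7 in the same order of groups, at 54.7 ± 2.27 and 26.6 ± 1.86 CPM per kb. In ADV-shFam172a its neighbour was Phb2 at 52.1 ± 0.676, and their order turned when the longest transcript was used as length (64.7 for Bnip3l, 81.6 for Phb2). Ulk1 ranked 20 in ADV-shFam172a and 28 in ADV-shCtrl, at 10.5 ± 0.438 and 6.28 ± 0.314 CPM per kb. At the low end, Atg4a had 0.330 ± 0.0372 and 0.361 ± 0.120 CPM per kb, and Atg2a 2.13 ± 0.0817 and 1.77 ± 0.141.

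The 23 members that did not pass lay between -0.12 and 0.23 on the log2 fold change scale, 13 of them above 0. In 5 of them all ADV-shFam172a libraries were above the ADV-shCtrl ones (Ulk2, Atg14, Atg4b, Map1lc3b and Fundc1), and in 4 all were below (Becn1, Atg5, Gabarapl2 and Phb2). Over all genes tested, called or not, the shares were 22.5% and 23.5%, 46% in either direction, so nothing is read from these counts. A p that missed the threshold does not show that a gene was level. Depth moved with the groups, and when every library was thinned to the smallest total, 16 members were higher and 2 lower. Across all tested genes the log2 fold change had a Spearman correlation of 0.11 with exon length and 0.13 with GC content (n = 12724 genes, which are not independent replicates). With offsets for both, 16 members were higher and 3 lower, and the members' median was 0.12.

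Other genes of the pathway, from a list of 79 symbols that includes 3 genes under an old and a new name, were counted by role, with no test between roles. Of 71 tested, 17 were higher, 11 lower and 43 uncalled, and their median was 0.03 on the log2 scale. The share called was 39.4%, near the 36.1% of all genes tested (17.5% higher, 18.6% lower). Among 11 further genes of the core machinery, 3 rose and 0 fell. Atg9b, the second ATG9 gene, was at 0.70 ± 0.069 (edgeR adjusted p = 2.3e-10), with 35.8 ± 1.97 CPM in ADV-shFam172a and 22.0 ± 1.997 CPM in ADV-shCtrl. Nos3 overlaps 7.45% of its exon bases on the opposite strand. Wdr45, a WIPI relative, was low, at 5.76 ± 0.922 and 4.32 ± 0.408 CPM (0.41 ± 0.16, adjusted p = 0.036), and its call ended without ADV-shFam172a replicate 2 or ADV-shCtrl replicate 1 or 3 (adjusted p = 0.21, 0.13 and 0.091). Gm45208 shares 24.7% of the exon bases of Wdr45 on the same strand.

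Of 11 other selective receptors, 6 rose and 1 fell, where 17.5% of all genes tested rose and 18.6% fell. Tex264, a receptor for the endoplasmic reticulum, was at 0.55 ± 0.073 (edgeR adjusted p = 1.0e-07), with 30.6 ± 2.12 CPM in ADV-shFam172a and 20.9 ± 1.53 CPM in ADV-shCtrl. Stbd1, a receptor for glycogen, was at 0.49 ± 0.051 (adjusted p = 8.0e-10), and Calcoco1, a receptor for the endoplasmic reticulum and Golgi, at 0.42 ± 0.071 (adjusted p = 9.5e-06). The one that fell, named after its values were seen, was Fam134b, another receptor for the endoplasmic reticulum (-0.30 ± 0.11, adjusted p = 0.040). Its level was low, at 7.62 ± 0.490 CPM in ADV-shFam172a and 9.34 ± 0.451 CPM in ADV-shCtrl. Of the other receptors in this list, Sec62 (0.20), Atl3 (0.27) and Wdfy3 (0.298) also rose, and Rtn3, Ccpg1, Ncoa4 and Tollip did not pass. They too were named after their values were seen. Of 14 genes for fusion with the lysosome, 1 rose and 0 fell. That gene, named after its values were seen, was Vps39, a subunit of the HOPS tether, at 0.12 ± 0.043 (adjusted p = 0.030).

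Of 20 other genes of mitophagy and mitochondrial dynamics, 3 rose and 6 fell, and none rose by as much as 0.25. Over all genes tested, 17.5% rose and 18.6% fell. The genes of this group named here were chosen after their values were seen. Usp15, a deubiquitinase reported to oppose parkin, was at -0.29 ± 0.031 (edgeR adjusted p = 1.5e-09), the phosphatase Pgam5 at -0.27 ± 0.041 (adjusted p = 1.5e-06) and Parl, the protease that cleaves PINK1, at -0.20 ± 0.034 (adjusted p = 8.2e-06). The long noncoding RNA Gm26718 overlaps 58.1% of the exon bases of Pgam5 on the opposite strand. The fusion protein gene Mfn2 was at 0.15 ± 0.033 (adjusted p = 3.4e-04). Of 15 kinase and transcription factor genes that control the pathway, 4 rose and 4 fell. Foxo3, a transcription factor that switches on autophagy genes, was at 0.61 ± 0.061 (adjusted p = 2.6e-10), with 45.7 ± 2.82 CPM in ADV-shFam172a and 30.0 ± 1.70 CPM in ADV-shCtrl. Tfeb, the main factor of lysosome and autophagy genes, was at -0.20 ± 0.0996 (adjusted p = 0.12), and Hif1a, an alpha subunit of HIF that is controlled mainly as a protein, at -0.11 ± 0.031 (adjusted p = 0.0046). Both were named after their values were seen.

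**Figure D4:**
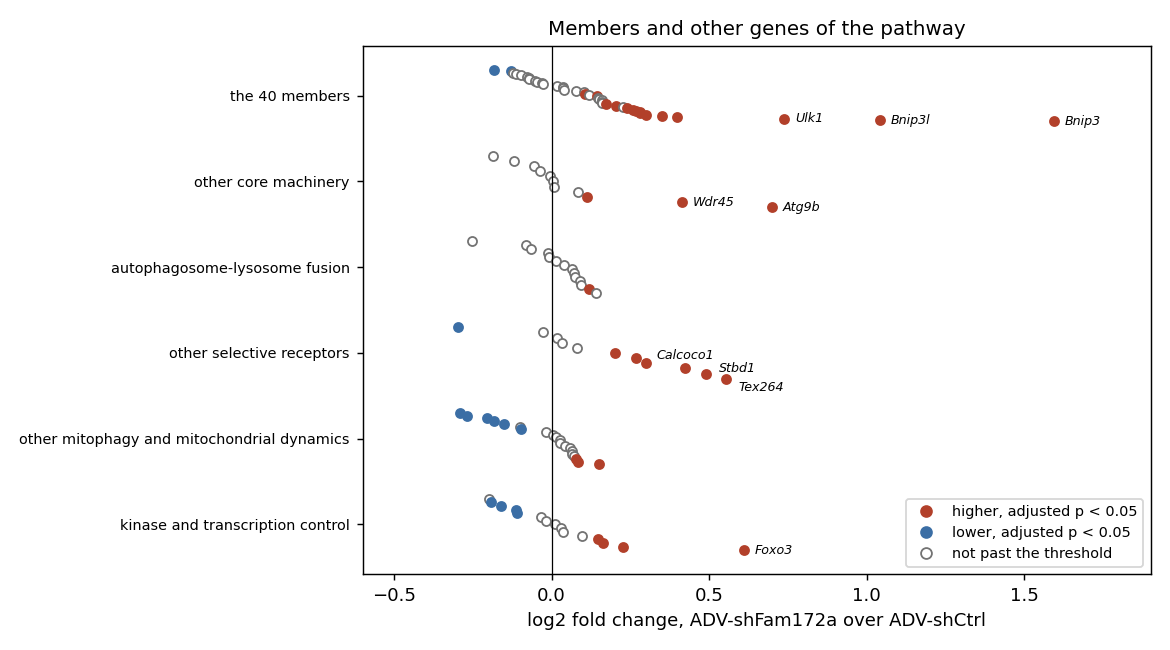
Log2 fold change, ADV-shFam172a over ADV-shCtrl, of the 40 members (top row) and of 71 other tested genes of the pathway in 5 groups below. Red and blue points passed an adjusted p of 0.05 as higher and lower and open points did not. The mitochondrial group has 6 lower and 3 higher genes of 20, where 18.6% of all genes tested were lower and 17.5% higher. Atg9b (0.70) and Foxo3 (0.61) lie farthest right among the other genes.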

How the data were processed

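RNA of 6 Neuro2a samples was sequenced as paired-end reads. The deposited tables hold raw counts per gene symbol; the tools listed, per the submitters' processing notes, are HISAT2 2.0.5 and HTSeq, with build mm10. Neither the annotation nor the strand setting is stated (not given in the sources used here). Single-sample and series tables held the same counts. The 5 rows that name no gene were left out; pairs in no gene made up 17.4% of all counted pairs in ADV-shFam172a and 16.5% in ADV-shCtrl, pairs with several alignments 10.3% and 9.64%, pairs of low alignment quality 6.08% and 5.26%, ambiguous pairs 1.80% and 1.81%, and pairs not aligned 0.991% and 0.825%.

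In R 4.3.3, edgeR 4.0.16 filtered the genes (filterByExpr by group), scaled the libraries (TMM) and tested each gene (glmQLFit, robust, and glmQLFTest), with group as the sole term and Benjamini-Hochberg adjustment over 12820 genes. The SE is the log2 fold change divided by the square root of F. The fit was tested on simulated data. DESeq2 1.42.0, other scalings and filters, offsets for length and GC (mgcv 1.9.3), thinning, a replicate block and leaving out each library were alternatives. Levels per length divide CPM by merged exons of GENCODE M21 (GRCm38). No pair of libraries agreed within sampling noise. The labels do not say whether replicate numbers pair the samples. Same-numbered samples did not deviate together, which does not show that they were unpaired. 1 marker gene is not reported here. The members, lists and the naming rule were chosen with earlier results of these data known. The rule gives full values for members past the threshold with an absolute log2 fold change of 0.25 or more, the smallest p of each role, and all ATG8 and mitophagy genes. Some members outside the rule are given in full as well. Other pathway genes are named at 0.3 or more, and the rest that are named fall outside the rule.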

Additional observations from a re-analysis of the deposited data

Results flagged for a closer look

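Read pairs that fell in no gene took 17.4% ± 0.388 of all pairs in ADV-shFam172a and 16.5% ± 0.0594 in ADV-shCtrl (SD, n = 3 each). Pairs that aligned to several places took 10.3% ± 0.234 in ADV-shFam172a and 9.64% ± 0.0608 in ADV-shCtrl. Each share was higher in all 3 ADV-shFam172a libraries than in any ADV-shCtrl library. Both are rows of the table that no test used, and their part in the members' values was not tested.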

How the results depend on the processing

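Over 15 other settings, 12 to 17 members were higher and 2 to 3 lower, the fewest rises with DESeq2 (12) and the most with upper-quartile scaling (17); leaving out 1 library gave 13 to 15 higher and 2 to 3 lower. No called member changed sign; 5 uncalled ones did (Atg3, Atg7, Atg10, Atg4a and Atg4c). Of 17 called members, 13 kept their call in every setting, and Wipi2, Atg2a, Atg12 and Atg16l1 did not; each of the first 3 was also lost with DESeq2 (adjusted p = 0.092, 0.064 and 0.085). Of 23 others, 9 gained a call somewhere: besides those given in the report, Atg4d when thinned to equal depth (adjusted p = 0.021) and without ADV-shFam172a replicate 2 (adjusted p = 0.030), and Phb2 with length and GC offsets (adjusted p = 0.036). The cause was not tested. With the replicate block, 15 members were higher and 2 lower, as without it; same-numbered samples did not deviate together (correlations of -0.0054, -0.0038 and -0.0096), and the block changed no member's call. With the block and the length and GC offsets, 15 were higher and 3 lower. Over the other settings, 13 to 18 other pathway genes were higher and 8 to 11 lower, and among all genes 1711 to 2486 were higher and 1821 to 2381 lower. The median over all genes moved by under 0.1 in each. Taking the longest transcript as length moved 73 of 80 levels per kb by more than the spread between replicates. Depth limits Atg4a most: it had 9 to 15 counts in the shallower ADV-shCtrl libraries and was not tested under the stricter filter.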
